A study of Mus musculus with 2 samples.

Results

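The genes described here are 5 receptors and 5 ligands of the skin and its neural crest cells. The receptors are *Kit*, *Ednrb*, *Erbb3*, *Erbb2* and *Met*, and the ligands are *Kitl*, *Edn3*, *Edn1*, *Nrg1* and *Hgf*. They were chosen by symbol, and all 10 were found among the 28000 genes of the deposited counts. The question was which cell types of the sorted skin carried the RNA of each ligand and which that of its receptor, and whether both libraries gave the same answer.

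The study removed *Hira*, the gene of a histone chaperone, from the melanocyte lineage of the mouse and compared the skin of embryos with and without it. The HIRA WT library was made from *TyrCre::Hira* wt/wt:*tdTomato* cells and the HIRA KO library from *TyrCre::Hira* fl/fl:*tdTomato* cells, so both groups carried the Cre, driven by the promoter of *Tyr* (tyrosinase), and the Cre-dependent red reporter. Trunk skin was taken at E15.5 from mice of a mixed background close to C57BL/6J, live tdTomato+ cells were sorted by flow cytometry, and the RNA of single cells was read from its 3′ end on the 10x Chromium platform. There was 1 library per genotype, and the labels do not say from which of the study's embryos each came. The study's methods describe WT and KO littermates for embryo work, and a deposited label holds the word pooled without saying what was pooled. The sort selected against cells without a history of Cre activity, so most keratinocytes, blood vessel cells and nerve cells of the skin, which include known sources of these ligands, were not sampled in proportion.

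KIT is a receptor tyrosine kinase whose ligand, made by cells around the melanoblasts, keeps them alive and moving, and loss of either gene leaves unpigmented skin. Endothelin 3 acts through the G protein-coupled receptor EDNRB on melanoblasts and on neural crest cells of the gut, and neuregulin 1 acts through ERBB3, which has little kinase activity of its own and signals paired with ERBB2, on Schwann cell precursors. MET is the receptor of hepatocyte growth factor, which is made by mesenchyme.

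Unique molecular identifiers (UMIs), each standing for 1 captured RNA molecule, numbered 7073939 over the 1546 WT barcodes and 5049514 over the 846 KO barcodes. Median depth was 3961 UMIs in WT and 5152.5 in KO, so KO cells were read more deeply. No barcode was shared by the libraries (0). After filtering, 1540 WT and 828 KO cells were left. *Hira* itself (chr16:18877037-18970309) was read in melanoblast-like cells with 35 WT UMIs and 3 KO UMIs. As CPM, which are counts per mega-UMI of the class, that was WT 13.8 (95% interval 9.60 to 19.2) and KO 3.53 (0.728 to 10.3). With each cell thinned to 2000 UMIs, 9 and 2 UMIs were left. Over all cells *Hira* had 82 WT and 50 KO UMIs, with 18 and 9 in glial-like and 8 and 16 in mesenchymal-like cells. A 3′ tag outside the deleted part would not show the deletion, and which exons are flanked by loxP sites is not given in the sources used here. *Xist*, expressed from the inactive X chromosome, had 16822 WT and 23 KO UMIs, and the Y-linked *Eif2s3y* had 0 WT and 220 KO UMIs. The WT library was thus female and the KO library male, and genotype and sex cannot be told apart in any value below. The reporter had 55 WT and 71 KO UMIs, and the Cre 19 and 16. All intervals are exact 95% intervals (Poisson for CPM, Clopper-Pearson for shares of cells, conditional binomial for log2 ratios). They cover counting error only, and with 1 library per genotype no difference between the genotypes was tested.

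The cells of both libraries fell into 22 clusters, each holding cells of both. From marker genes, 20 clusters were named and 2 were left unnamed. The melanoblast-like class, marked by *Dct*, *Pmel* and *Mlana*, held 536 WT and 139 KO cells. The glial-like class, marked by *Fabp7*, *Gfra3* and *Gap43*, held 446 and 254, and the mesenchymal-like class, marked by *Lum*, *Dcn* and *Col1a1*, held 215 and 253. Smaller classes were macrophage-like (96 WT and 18 KO cells), mast cell-like (92 and 3), keratinocyte-like (12 and 81), endothelial-like (21 and 8), adipocyte-like (43 and 8), erythroid-like (5 and 19), pericyte-like (3 and 5) and neutrophil-like (7 and 7). The unnamed clusters were led by *Plac8* and *Cd74* (50 and 17 cells) and by *Stmn2* and *Ebf1* (14 and 16). The make-up of the main classes was not the same in both libraries. A mesenchymal-like cluster led by *Crabp1* and *Egfl6* held 79.1% of that class in WT and 39.5% in KO, and a cluster led by *Mfap5* and *Clec3b* held 20.9% and 60.5%. Among glial-like cells, the cluster led by *Pou3f1* and *Cpm* held 8.07% in WT and 23.2% in KO. Among melanoblast-like cells, the cluster led by *Dqx1* and *Mt2* held 44.2% and 64.0%, and that led by *Pmel* and *Slc24a5* held 20.1% and 4.32%.

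**Figure D1:**
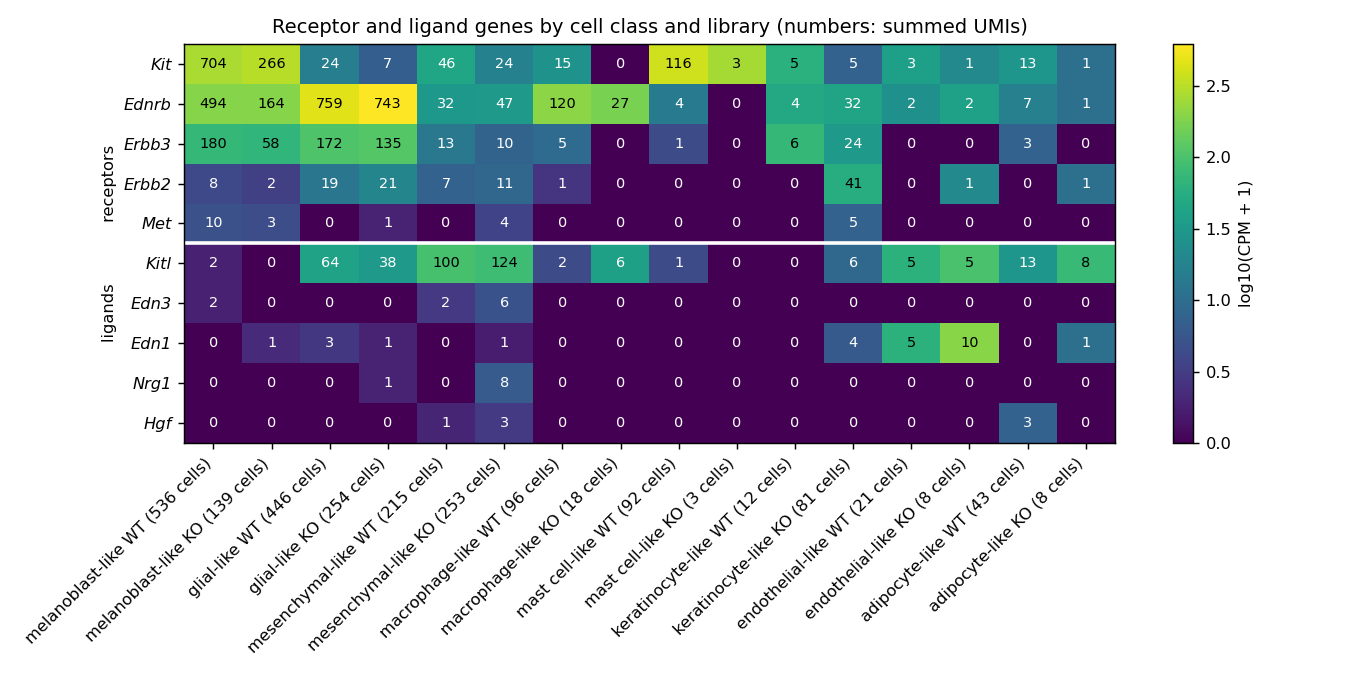
Level of each receptor (upper 5 lines) and ligand (lower 5 lines) gene in the cell classes of the HIRA WT and HIRA KO libraries. Colour gives log10(CPM + 1) and the number in each square is the sum of UMIs over the class. Kit stands highest in mast cell-like and melanoblast-like cells, Ednrb in glial-like cells and Kitl in mesenchymal-like cells among the main classes, while Edn3, Edn1, Nrg1 and Hgf have few UMIs in every class.

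*Kit* (ENSMUSG00000005672, chr5:75574916-75656722), the stem cell factor receptor, was a gene of the melanoblast-like and mast cell-like classes in both libraries. Of its 942 WT UMIs, 74.7% lay in melanoblast-like and 12.3% in mast cell-like cells, and of its 307 KO UMIs, 86.6% lay in melanoblast-like cells. In WT the level was 390.4 CPM (323 to 468) in mast cell-like cells, above the 277 CPM (257 to 299) of melanoblast-like cells, with intervals that did not overlap. All other WT classes stood lower, at 60.2 CPM (19.6 to 141) in keratinocyte-like, 43.2 CPM (31.6 to 57.6) in mesenchymal-like cells, then 36.6 CPM (7.55 to 107) in endothelial-like and 28.7 CPM (15.3 to 49.1) in adipocyte-like cells, macrophage-like cells at 25.4 CPM (14.2 to 41.9) and glial-like cells at 14.7 CPM (9.43 to 21.9), and neighbours in this order overlapped. In KO melanoblast-like cells the level was 313 CPM (276 to 353), while the 3 mast cell-like cells of that library held 3 UMIs. Among KO classes with more than 1 UMI, mesenchymal-like cells followed at 16.1 CPM (10.3 to 23.9), keratinocyte-like at 6.57 CPM (2.13 to 15.3) and glial-like at 5.86 CPM (2.36 to 12.1), which overlap. Macrophage-like KO cells held 0 UMIs, which allows up to 19.0 CPM.

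All melanoblast-like clusters carried the receptor. In WT, *Kit* stood at 316 CPM (281 to 355) in the *Dqx1*/*Mt2* cluster, at 304 CPM (256 to 359.6) in the *Pmel*/*Slc24a5* cluster, at 243 CPM (214 to 276) in the cycling *Pbk*/*Dct* cluster and at 188 CPM (127 to 269) in the *Tyrp1*/*Dct* cluster. Neighbours in this order overlapped, while the *Dqx1*/*Mt2* cluster lay above both the *Pbk*/*Dct* and the *Tyrp1*/*Dct* cluster. In KO the *Dqx1*/*Mt2* cluster stood at 329 CPM (279.5 to 384) and the *Pbk*/*Dct* cluster at 293 CPM (237 to 359), which overlap. Among melanoblast-like cells, 70.0% in WT and 77.0% in KO held a *Kit* UMI (median depths 4335 and 5654 UMIs). The share was 8.33% of WT and 0% of KO macrophage-like cells (5571.5 and 8125 UMIs), taken as the class that should lack the gene. After thinning, these shares were 41.3% and 48.9% in melanoblast-like cells and 2.11% and 0% in macrophage-like cells. For the class as a whole log2 KO/WT was 0.17 (-0.04 to 0.38), so a difference was not detectable at this depth.

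Outside these classes *Kit* had few UMIs, and there WT stood above KO. Keratinocyte-like cells held 5 UMIs in each, with log2 KO/WT of -3.20 (-5.32 to -1.08), but 8 of the 12 WT and 25 of the 81 KO cells were of the *Krt14*/*Krt17* cluster, which held all 5 WT UMIs and 3 of the KO UMIs, with -2.87 (-5.56 to -0.51), and *Dct* in the WT cells of that class was 15.8% of its melanoblast-like level against 3.67% in KO. Mesenchymal-like cells held 46 WT and 24 KO UMIs, 43.2 and 16.1 CPM, a log2 ratio of -1.43 (-2.203 to -0.68), and the ratio was -1.42 (-2.59 to -0.39) in the *Crabp1*/*Egfl6* and -1.41 (-2.77 to 0.05) in the *Mfap5*/*Clec3b* cluster. Glial-like cells held 24 and 7 UMIs, 14.7 and 5.86 CPM, a log2 ratio of -1.33 (-2.79 to -0.07), and 15 of the WT UMIs came from 5 cells of the *Sostdc1*/*1500015O10Rik* cluster. Markers of the cell types with high *Kit* were also lower in KO in both classes. Of the 10 melanoblast markers, 9 were detected in WT mesenchymal-like cells (*Gpr143* at 0), with a summed 544 CPM led by *Ptgds* at 187 CPM, and 8 in KO (*Tyrp1* and *Gpr143* at 0), with 281 CPM led by *Dct* at 91.8 CPM. Of the 8 mast cell markers, 6 were detected in WT mesenchymal-like cells (*Fcer1a* and *Gata2* at 0), summing to 113 CPM led by *Cma1* at 56.4 CPM, and 4 in KO (*Mcpt4*, *Ms4a2*, *Fcer1a* and *Gata2* at 0), summing to 18.8 CPM led by *Cma1* at 9.38 CPM. In glial-like cells the melanoblast markers summed to 231 WT and 149 KO CPM with 10 of 10 detected in both, led by *Ptgds*. The mast cell markers there summed to 127 and 26.8 CPM with 6 and 4 of 8 detected, led by *Cma1* in WT and *Cpa3* in KO (*Ms4a2* and *Fcer1a* at 0 in both, *Mcpt4* and *Gata2* at 0 in KO). A UMI of *Dct* or *Pmel* was found in 43 of 215 WT and 37 of 253 KO mesenchymal-like cells. Without these cells, a choice made after seeing the data, mesenchymal-like *Kit* was 4 WT UMIs, 5.196 CPM (1.42 to 13.3), and 9 KO UMIs, 7.38 CPM (3.37 to 14.0), and the log2 ratio became 0.51. The glial-like values became 9 and 5 UMIs, 6.51 and 5.203 CPM, with a log2 ratio of -0.32.

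*Ednrb* (ENSMUSG00000022122, chr14:103814625-103844402), the endothelin receptor of neural crest cells, had the most UMIs of the set, 1432 in WT and 1020 in KO. It was highest in glial-like cells, which held 53.0% of its WT and 72.8% of its KO UMIs. In WT the glial-like level was 466 CPM (433 to 499.9), followed by macrophage-like cells at 203 CPM (168 to 243) and melanoblast-like cells at 195 CPM (178 to 213), which did not differ beyond counting error. Keratinocyte-like cells stood at 48.2 CPM (13.1 to 123) and mesenchymal-like cells at 30.1 CPM (20.6 to 42.4). In KO the order was glial-like at 622 CPM (578 to 668), melanoblast-like at 193 CPM (165 to 225), macrophage-like at 171 CPM (113 to 249), keratinocyte-like at 42.1 CPM (28.8 to 59.4) and mesenchymal-like at 31.5 CPM (23.1 to 41.9). Melanoblast-like and macrophage-like cells overlapped there too, as did keratinocyte-like and mesenchymal-like cells.

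Glial-like *Ednrb* was 759 WT and 743 KO UMIs, a log2 ratio of 0.42 (0.27 to 0.57). The clusters of the class were far apart in level and their shares differed between the libraries, so each is given. The *Pou3f1*/*Cpm* cluster had a WT level of 638 CPM (508 to 793) and a KO level of 1107 CPM (993 to 1229.9), with 0.79 (0.44 to 1.16). The *Sostdc1*/*1500015O10Rik* cluster stood at 689 and 603 CPM, a log2 ratio of -0.19 (-0.46 to 0.07). The *Gm29865*/*Grb14* cluster gave 596 and 785 CPM, with 0.40 (-0.12 to 0.89), the *Pcdh20*/*Gabra2* cluster 260.3 and 333 CPM, with 0.35 (-0.02 to 0.73), and the cycling *Cdc25c*/*Fabp7* cluster 253 and 306 CPM, with 0.27 (-0.28 to 0.81). Only the *Pou3f1*/*Cpm* interval lay wholly above 0 among these 5 clusters. With the KO clusters weighted to the make-up of the WT class, a choice made after seeing the data, the class ratio was 0.21. In melanoblast-like cells *Ednrb* was 494 WT and 164 KO UMIs with a log2 ratio of -0.01 (-0.28 to 0.24), and in mesenchymal-like cells 32 and 47 UMIs with 0.07 (-0.61 to 0.76).

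The macrophage-like class was the one set beside *Ednrb* as lacking it, and the data went against that. A UMI of *Ednrb* was found in 62.5% of 96 WT and 50.0% of 18 KO macrophage-like cells (34.7% and 38.9% after thinning), beside 69.3% and 74.8% of glial-like cells (53.5% and 57.3% after thinning; median depths 3378.5 and 4208 UMIs) and 52.1% and 64.0% of melanoblast-like cells (28.2% and 28.1% after thinning). In mast cell-like WT cells, set beside these after seeing the data, the share was 3.26% (4.55% after thinning, median depth 2762.5 UMIs). The level in WT macrophage-like cells was 43.7% of the glial-like level, while the melanoblast transcript *Dct* reached 0.500% of its melanoblast-like level in the same cells. In KO macrophage-like cells *Ednrb* reached 27.5% of the glial-like level. Macrophage-like *Ednrb* was 120 WT and 27 KO UMIs, a log2 ratio of -0.25 (-0.91 to 0.36).

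*Erbb3* (ENSMUSG00000018166, chr10:128567523-128589652), the neuregulin-binding receptor, followed *Ednrb* in the neural crest classes. Its 383 WT UMIs lay in melanoblast-like (47.0%) and glial-like cells (44.9%), and its 229 KO UMIs in glial-like (59.0%) and melanoblast-like cells (25.3%). Per UMI of the class it was higher in glial-like cells in both libraries, with WT at 105 CPM (90.3 to 122) and KO at 113 CPM (94.7 to 134), than in melanoblast-like cells, with 70.9 CPM (60.9 to 82.1) and 68.2 CPM (51.8 to 88.2). The interval of WT keratinocyte-like cells, 72.3 CPM (26.5 to 157) from 6 UMIs, overlapped both. KO keratinocyte-like cells stood at 31.6 CPM (20.2 to 47.0), above mesenchymal-like cells at 6.70 CPM (3.21 to 12.3). WT mesenchymal-like cells stood at 12.2 CPM (6.50 to 20.9) and macrophage-like cells at 8.47 CPM (2.75 to 19.8), which overlap. A UMI was found in 30.9% of WT and 37.4% of KO glial-like cells and in 26.3% and 35.3% of melanoblast-like cells, beside 5.21% and 0% of macrophage-like cells. After thinning these shares were 19.6% and 21.5%, 12.4% and 11.5%, and 1.05% and 0%. For *Erbb3*, log2 KO/WT was 0.10 (-0.24 to 0.43) in glial-like cells, -0.06 (-0.51 to 0.38) in melanoblast-like cells and -0.87 (-2.22 to 0.44) in mesenchymal-like cells, none of them detectably different from 0. The mesenchymal-like ratio rests on 13 WT and 10 KO UMIs and became 0.56 without the cells that held a UMI of *Dct* or *Pmel*, the same choice made after seeing the data. A microRNA gene, *Mir6917*, overlaps *Erbb3* on the same strand.

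*Erbb2* (ENSMUSG00000062312, chr11:98412470-98437716), the kinase partner of ERBB3, had 35 WT and 81 KO UMIs. Its highest level was in KO keratinocyte-like cells, with 41 UMIs and 53.9 CPM (38.7 to 73.1). The *Krt1*/*Krt10* cluster of differentiating keratinocytes held 35 of them, at 66.9 CPM (46.6 to 93.0). The 12 WT keratinocyte-like cells held 0 UMIs, which allows up to 36.1 CPM, and KO was at least 1.49-fold higher than that limit, with a counting interval for log2 KO/WT that starts at 0.21. Within each keratinocyte-like cluster the WT limit (104 and 55.5 CPM) lay above the KO level, so no difference was detectable there. Among named classes with more than 1 UMI, glial-like cells followed with a WT level of 11.7 CPM (7.02 to 18.2) and a KO level of 17.6 CPM (10.9 to 26.9). Their log2 KO/WT was 0.59 (-0.37 to 1.57) from 19 and 21 UMIs. Mesenchymal-like cells stood at 6.58 and 7.37 CPM and melanoblast-like cells at WT 3.15 CPM (1.36 to 6.21) and KO 2.35 CPM (0.285 to 8.50), so the partner receptor was lower in melanoblast-like than in glial-like cells of both libraries, with intervals that did not overlap. Glial-like cells held a UMI in 4.04% (WT) and 7.87% (KO) of cells, 2.2005% and 4.47% after thinning, and KO keratinocyte-like cells in 39.5% (median depth 9113 UMIs; 13.2% after thinning), beside 1.04% and 0% of macrophage-like cells (0% in both after thinning). *Met* (ENSMUSG00000009376, chr6:17463800-17573980), the hepatocyte growth factor receptor, was near the limit of detection with 13 WT and 14 KO UMIs. Of the WT UMIs, 10 lay in melanoblast-like cells at 3.94 CPM (1.89 to 7.25), and 3 in the unnamed *Plac8*/*Cd74* cluster at 13.2 CPM (2.72 to 38.6), which overlaps. None lay in glial-like or mesenchymal-like cells, which allows up to 1.84 and 2.82 CPM. The KO UMIs were spread over keratinocyte-like (5 UMIs, 6.57 CPM), mesenchymal-like (4, 2.68 CPM) and melanoblast-like cells (3, 3.53 CPM), whose intervals overlap. No macrophage-like cell of either library held a *Met* UMI.

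Receptors were also counted together in single cells. In melanoblast-like cells, WT had 37.3% (33.2 to 41.6) and KO 50.4% of cells (41.8 to 58.9) with UMIs of both *Kit* and *Ednrb*, and 11.0% (8.49 to 14.0) and 18.0% (11.99 to 25.4) with UMIs of *Kit*, *Ednrb* and *Erbb3*. After thinning the shares were 12.8% and 17.3% for the pair and 1.33% and 2.16% for the trio. KO still stood above WT by about the same fold in both, but the thinned trio was only 7 WT and 3 KO cells. The intervals of the libraries then overlapped, while those of the pair had not overlapped before thinning. *Kit* with *Erbb3* also stayed higher in KO, at 5.14% (WT) and 6.47% (KO) after thinning. *Ednrb* with *Erbb3* did not. Its shares were 15.3% (WT) and 20.9% (KO) before thinning. They were 3.62% and 2.16% after it, from 19 and 3 cells, with intervals that overlapped. In glial-like cells *Ednrb* and *Erbb3* were found together in 21.5% of WT (17.8 to 25.6) and 31.1% of KO cells (25.5 to 37.2), or 10.51% and 13.01% after thinning, and *Kit* with *Ednrb* in 1.57% and 2.36%, or 0.489% and 0.407% after thinning. Mast cell-like WT cells had *Kit* alone of these receptors in 65.2% of cells. The receptor and its own ligand, *Kit* and *Kitl*, met in 2 of the 536 melanoblast-like cells in WT and 0 of 139 in KO. In mesenchymal-like cells they met in 3 of 215 WT cells (1.40%, 0.289 to 4.02) and 7 of 253 KO cells (2.77%, 1.12 to 5.62), and in 1 and 0 cells after thinning.

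**Figure D2:**
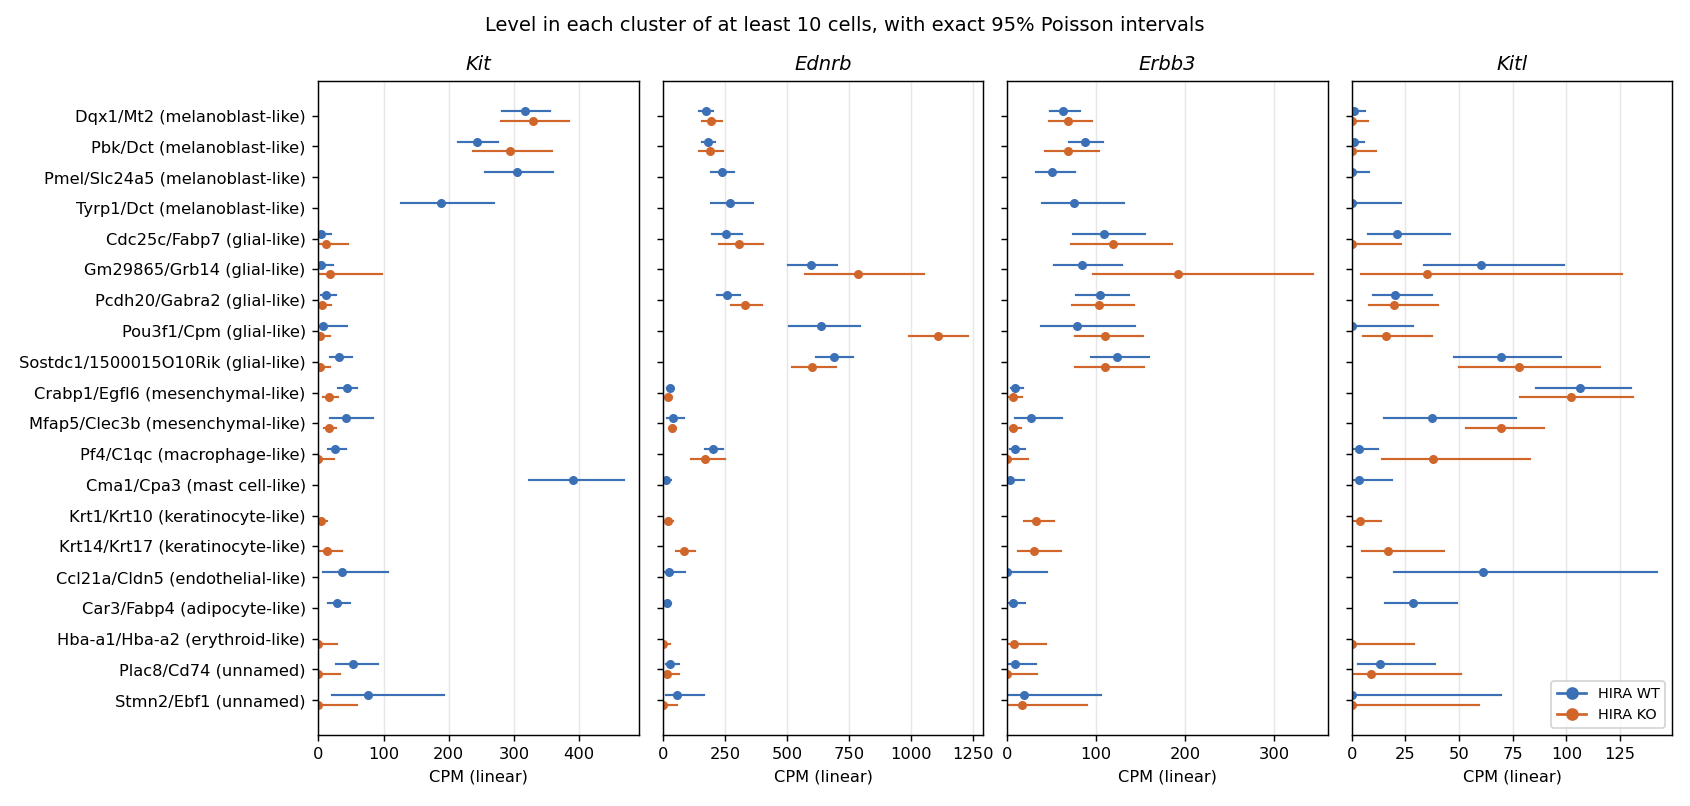
Level of Kit, Ednrb, Erbb3 and Kitl (CPM, linear axes) in each cluster with at least 10 cells in the library, for HIRA WT (blue) and HIRA KO (orange), with exact 95% Poisson intervals as horizontal lines. The Pou3f1/Cpm cluster reaches 1107 CPM of Ednrb in KO and 638 CPM in WT, and Kitl is highest in the Crabp1/Egfl6 cluster among clusters drawn for both libraries, with WT at 106 and KO at 102 CPM.

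*Kitl* (ENSMUSG00000019966, chr10:100015630-100100416), the ligand of KIT, was the only ligand of the set with over 20 UMIs in a library, with 190 in each. Mesenchymal-like cells held 52.6% of its WT and 65.3% of its KO UMIs and glial-like cells 64 and 38 UMIs. In WT the level was 93.9 CPM (76.4 to 114) in mesenchymal-like cells, then 61.0 CPM (19.8 to 142) in endothelial-like, 39.3 CPM (30.2 to 50.1) in glial-like and 28.7 CPM (15.3 to 49.1) in adipocyte-like cells. Mesenchymal-like and glial-like cells did not overlap, and the endothelial-like value, from 5 UMIs, overlapped both. In KO, endothelial-like (97.8 CPM, 31.8 to 228), mesenchymal-like (83.1 CPM, 69.1 to 99.0) and adipocyte-like cells (78.3 CPM, 33.8 to 154) could not be ordered, and glial-like cells stood below the mesenchymal-like at 31.8 CPM (22.5 to 43.7). Melanoblast-like cells, which carry the receptor, had 2 *Kitl* UMIs in WT, 0.788 CPM (0.0954 to 2.85), and 0 in KO, which allows up to 3.53 CPM. A UMI was found in 27.4% of WT and 27.7% of KO mesenchymal-like cells (15.53% and 12.1% after thinning; median depths 4436 and 5330 UMIs) and in 12.8% and 11.4% of glial-like cells (8.31% and 6.91%), beside 2.08% and 11.1% of macrophage-like cells (1.05% and 11.1%). The last share is 2 KO cells that held 6 UMIs, with log2 KO/WT of 3.49 (1.01 to 6.83) against 2 WT UMIs. The mesenchymal transcript *Col1a1* was also higher in KO macrophage-like cells, with 659.6 CPM (12.4% of its mesenchymal-like level) against 25.4 CPM (0.630%) in WT.

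Within the mesenchymal-like class the *Crabp1*/*Egfl6* cluster, which also has *Twist2*, *Lum* and *Pth1r* among its leading genes, had *Kitl* levels of 106 CPM (85.7 to 130.02) for WT and 102 CPM (78.6 to 131) for KO. The *Mfap5*/*Clec3b* cluster had 37.2 CPM (14.96 to 76.6) and 69.6 CPM (53.2 to 89.4), a log2 ratio of 0.90 (-0.23 to 2.28). In WT the interval of the *Crabp1*/*Egfl6* cluster lay above that of the *Mfap5*/*Clec3b* cluster, and in KO they overlapped. For the class the log2 ratio was -0.18 (-0.57 to 0.22). Among glial-like clusters *Kitl* was highest in the *Sostdc1*/*1500015O10Rik* cluster, with WT at 69.3 CPM (47.7 to 97.3) and KO at 77.8 CPM (49.8 to 116), and in WT the *Gm29865*/*Grb14* cluster followed at 60.0 CPM (33.6 to 99.0). The mesenchymal transcript *Col1a1* stood in the *Sostdc1*/*1500015O10Rik* cluster at 43.3% of its mesenchymal-like level in WT and 55.8% in KO, beside 3.87% and 3.92% in the *Gm29865*/*Grb14* cluster. The glial-like class had a log2 ratio of -0.30 (-0.92 to 0.30), again not detectable at this depth. Tags of the 3′ end cannot tell the membrane-bound from the soluble form of the ligand.

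*Edn3* (ENSMUSG00000027524, chr2:174760619-174784042), the ligand that acts on EDNRB, had 10 UMIs in each library, and its highest level was in a small unnamed cluster. This *Stmn2*/*Ebf1* cluster, whose other leading genes include *Bmp4*, *Rspo3* and *Bmp3*, held 5 WT UMIs in 3 of 14 cells, 94.5 CPM (30.7 to 220.4), and 4 KO UMIs in 4 of 16 cells, 64.0 CPM (17.4 to 164). Its best-matching class was mesenchymal, with 4 of 9 markers raised, and the cluster went unnamed only by the rule on leading genes given below. It is therefore not set apart here from mesenchymal cells. The cells named mesenchymal-like held 2 WT and 6 KO UMIs, 1.88 CPM (0.228 to 6.79) and 4.02 CPM (1.47 to 8.75), below the cluster in both libraries. Glial-like cells, which had the most *Ednrb*, held 0 *Edn3* UMIs in both libraries, which allows up to 1.84 CPM in WT and 2.51 CPM in KO, and macrophage-like cells also held 0. *Edn1* (ENSMUSG00000021367, chr13:42301476-42307990), the endothelin of blood vessel cells, had 8 WT and 18 KO UMIs. Endothelial-like cells held 5 and 10 of them, 61.0 CPM (19.8 to 142) and 196 CPM (93.8 to 359.9), a log2 ratio of 1.68 (-0.00 to 3.58) from 21 and 8 cells. A UMI was found in 14.3% and 62.5% of these cells (5.88% and 33.3% after thinning; median depths 3360 and 5349.5 UMIs), beside 0% and 0.719% of melanoblast-like cells, the class set as the one that should lack it. Among the other named classes with 2 or more *Edn1* UMIs, KO keratinocyte-like cells followed with 4 UMIs, 5.26 CPM (1.43 to 13.5). No interval of these classes reached that of the endothelial-like cells of its library.

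*Nrg1* (ENSMUSG00000062991, chr8:31814551-32884029), the ligand of ERBB3, had 7 WT and 12 KO UMIs. All 7 WT UMIs came from 1 cell of the unnamed *Plac8*/*Cd74* cluster, and 3 of the KO UMIs from 1 cell of that cluster. The *Mfap5*/*Clec3b* cluster held 8 KO UMIs in 8 cells, 9.12 CPM (3.94 to 18.0). Its 45 WT cells held 0, which allows up to 15.9 CPM, so a difference within the cluster was not detectable. Over the whole mesenchymal-like class, in which that cluster is more common in KO, the 8 KO UMIs were 5.36 CPM (2.31 to 10.6), and the 0 WT UMIs allow up to 2.82 CPM. The counting interval for log2 KO/WT of the class starts at 0.28. Melanoblast-like cells held 0 UMIs in both libraries, and glial-like cells 0 and 1. *Hgf* (ENSMUSG00000028864, chr5:16553495-16620152), the ligand of MET, had 4 WT and 6 KO UMIs, of which 1 and 3 lay in mesenchymal-like cells, 3 WT in adipocyte-like cells and 3 KO in the *Plac8*/*Cd74* cluster. At these counts no class could be ordered. The genes *Gm43489* and *Gm42975* overlap *Hgf* on its strand, so their tags could be shared, and the splice forms of *Nrg1* cannot be told apart from 3′ tags.

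Only *Kit* and *Kitl* had enough UMIs for receptor and ligand to be placed side by side. *Kit* was highest in melanoblast-like and *Kitl* in mesenchymal-like cells among the 5 classes with at least 10 cells in each library, and *Ednrb* and *Erbb3* were both highest in glial-like cells. These were the 4 members with at least 50 UMIs in each library, and 4 of 4 had the same highest class in both, beside 55.9% of the 7359 genes that met the same rule. The 5 classes left out mast cell-like cells, where WT *Kit* stood higher at 390 CPM. Endothelial-like cells were also left out, where KO *Kitl* read 97.8 CPM from 5 UMIs against 83.1 CPM in mesenchymal-like cells. The agreement thus holds only among those 5 classes. Between the genotypes few members passed 2-fold. In melanoblast-like cells 3 members had at least 20 UMIs over both libraries, and 0 were 2-fold higher and 0 lower in KO, where 3.8% of 8129 genes were higher and 4.19% lower. In glial-like cells 0 of 5 members were higher and 1 (*Kit*) was lower, beside 3.81% and 2.47% of 8576 genes. In mesenchymal-like cells 0 of 4 were higher and 1 (*Kit*) was lower, beside 6.25% and 3.05% of 8097 genes. With so few members, a single gene exceeds these background shares. The median log2 ratio of the members read was -0.01 in melanoblast-like, 0.10 in glial-like and -0.52 in mesenchymal-like cells, beside -0.01, -0.01 and -0.00 for all genes read. The mesenchymal-like median is of 4 members. Of these, *Kit* (-1.43) and *Erbb3* (-0.87) became 0.51 and 0.56 without cells that held a UMI of *Dct* or *Pmel*, a choice made after seeing the data.

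**Figure D3:**
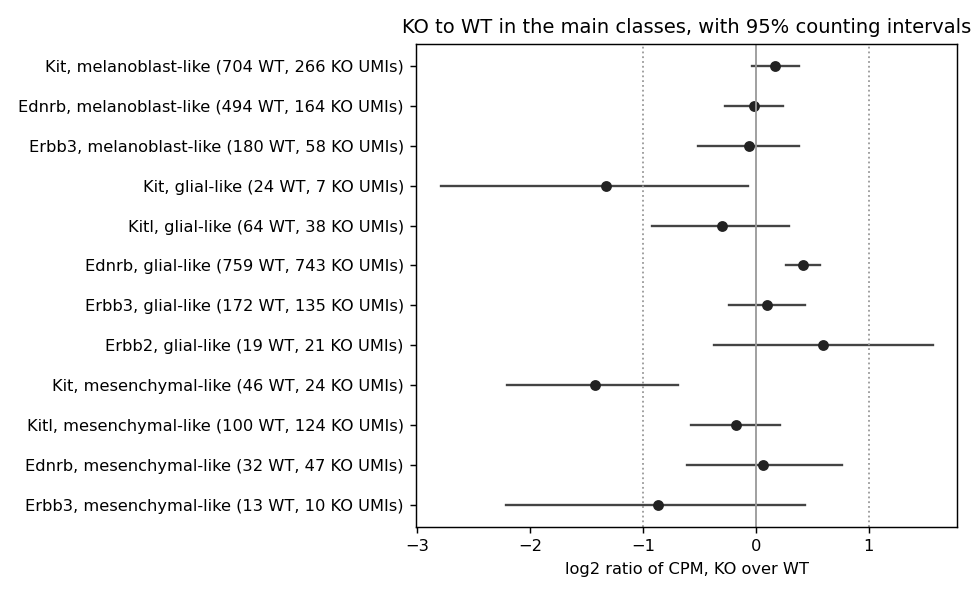
Log2 ratio of CPM of HIRA KO to HIRA WT for each member with at least 20 UMIs over both libraries in a main class, with exact 95% conditional binomial intervals (counting error only) and the summed UMIs of each library. Dotted lines mark 2-fold. The interval lies above 0 for Ednrb in glial-like cells (0.42) and below 0 for Kit in glial-like (-1.33) and mesenchymal-like cells (-1.43), and the other 9 include 0.

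Around the receptors, a list of 56 other genes of these pathways was read. In melanoblast-like cells 30 had at least 20 UMIs, of which 1 was 2-fold higher (*Adam17*) and 1 lower (*Spry2*) in KO, with a median log2 ratio of 0.07. In glial-like cells 31 were read, with 2 higher (*Gab2* and *Spry1*), 1 lower (*Lrig1*) and a median of -0.14. In mesenchymal-like cells 34 were read, with 4 higher (*Ednra*, *Egfr*, *Errfi1* and *Spred2*), 3 lower (*Dusp6*, *Etv1* and *Etv5*) and a median of -0.03. The shares of all genes 2-fold higher and lower were 3.8% and 4.19% in melanoblast-like, 3.81% and 2.47% in glial-like and 6.25% and 3.05% in mesenchymal-like cells. Keratinocyte markers (8 genes) summed to 65.4 WT and 407 KO CPM in melanoblast-like, 83.4 and 482 in glial-like and 48.9 and 406.6 in mesenchymal-like cells, so RNA of keratinocytes was higher in KO in all of them, and its part in the ratios of these genes was not tested. Where not described further, these genes are named only because they passed 2-fold.

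Signalling genes that act below KIT, adaptors among them, were read as an arm of 10 genes. Of these, 8, 9 and 9 were measurable in the melanoblast-like, the glial-like and the mesenchymal-like class, with medians of 0.19, -0.09 and -0.12. Only *Gab2* in glial-like cells passed 2-fold in this arm. *Grb2*, the adaptor that links receptors to RAS, had 38.2 WT and 57.6 KO CPM in melanoblast-like cells, log2 KO/WT 0.59 (0.07 to 1.10). *Ptpn11*, the phosphatase SHP2, stood at 27.6 and 36.5 CPM, with 0.40 (-0.26 to 1.03). The endothelin arm of 8 genes had 4, 4 and 6 measurable, with medians of -0.07, 0.15 and 0.14, and 1 gene past 2-fold. That gene was *Ednra*, the other endothelin receptor, which in mesenchymal-like cells had 20 WT and 58 KO UMIs, 18.8 and 38.8 CPM, a log2 ratio of 1.05 (0.29 to 1.86). In the *Crabp1*/*Egfl6* cluster it stood at 22.8 and 45.5 CPM, with 0.99 (0.11 to 1.90), and in the *Mfap5*/*Clec3b* cluster 0 WT UMIs faced 30 KO UMIs, at least 2.15-fold higher than the limit of 3 counts, with a counting interval for log2 KO/WT that starts at 0.71. *Ece1*, which cleaves the endothelins into their active form, was highest in glial-like cells of the main classes, at 37.4 and 36.0 CPM, and its relative *Ece2* stood at 15.3 and 21.8 CPM there. *Mme*, a peptidase that breaks endothelins down, was found mainly in mesenchymal-like cells, at 30.1 and 21.4 CPM. *Gnaq*, the G protein subunit below the receptors, stood at 71.1 and 61.9 CPM in glial-like and 36.6 and 50.6 CPM in melanoblast-like cells.

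The Erbb arm of 18 genes had 5, 6 and 9 measurable, with medians of 0.26, -0.36 and 0.25, and the counts past 2-fold were 1 higher, 1 lower and 2 higher. *Hbegf*, another ligand of this receptor family, was a glial-like gene with 237 WT and 131 KO UMIs, 145 and 109.7 CPM, a log2 ratio of -0.41 (-0.73 to -0.09). *Adam10*, a protease that sheds such ligands, stood at 118 and 115 CPM in glial-like cells, and at 30.7 and 48.2 CPM in melanoblast-like cells, log2 KO/WT 0.65 (0.07 to 1.21). *Egfr* had 6 WT and 21 KO UMIs in mesenchymal-like cells, 5.64 and 14.1 CPM, with 1.32 (-0.04 to 2.92), and 0 UMIs in melanoblast-like cells of both libraries. The Met arm of 8 genes had 2, 2 and 1 measurable, with medians of -0.45, -0.16 and 0.66 and none past 2-fold.

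The shared response of these receptors through ERK was read from 12 genes, of which 11, 10 and 9 were measurable, with medians of 0.05, 0.36 and -0.55. *Phlda1* was the highest pathway gene of WT melanoblast-like cells, at 1262 CPM and 1240 CPM in KO (log2 ratio -0.03, -0.13 to 0.08), and of WT mesenchymal-like cells, at 138 and 139.99 CPM, while in glial-like cells it stood at 248 and 322 CPM, log2 KO/WT 0.38 (0.17 to 0.58). *Ccnd1*, the cyclin of the early cell cycle, was the highest in WT glial-like cells, at 335 CPM, with 286 CPM in KO and a log2 ratio of -0.23 (-0.43 to -0.03). In mesenchymal-like cells *Ccnd1* was 122 and 79.7 CPM (-0.62, -0.99 to -0.25), yet its ratio was -0.44 (-0.89 to 0.00) in the *Crabp1*/*Egfl6* cluster and 1.92 (0.30 to 4.25) in the *Mfap5*/*Clec3b* cluster. In mesenchymal-like cells 3 of the 9 genes were 2-fold lower and 1 higher in KO, beside 3.05% and 6.25% of all genes. The higher gene was *Spred2*, 8.46 and 19.4 CPM, with a log2 interval of 0.08 to 2.46, and *Spry1* stood at 45.1 and 67.7 CPM, with 0.59 (0.08 to 1.11). *Etv5*, a transcription factor gene switched on by ERK, had 29.1 WT and 10.7 KO CPM, with -1.44 (-2.41 to -0.53), *Etv1* 18.8 and 6.03 CPM, with -1.64 (-2.96 to -0.44), and *Dusp6*, a phosphatase of ERK, 23.5 and 11.4 CPM, with -1.04 (-2.03 to -0.10). Within the *Crabp1*/*Egfl6* cluster these ratios were -1.49 (-2.93 to -0.26), -1.66 (-3.68 to -0.06) and -1.23 (-2.83 to 0.14), and within the *Mfap5*/*Clec3b* cluster each interval included 0. The melanoblast and mast cell markers, given with *Kit*, were lower in the same KO cells, and WT melanoblast-like cells had more *Etv5* and *Dusp6* (50.04 and 36.2 CPM) than mesenchymal-like cells. Whether such RNA made these ratios was not tested. In melanoblast-like cells *Etv1* went the other way, with 54 WT and 33 KO UMIs, 21.3 and 38.8 CPM, a log2 ratio of 0.87 (0.20 to 1.52). *Spry2*, an inhibitor of receptor tyrosine kinase signals, had 27 WT and 2 KO UMIs in melanoblast-like cells, 10.6 and 2.35 CPM, with -2.18 (-5.29 to -0.18), and in glial-like cells 15.9 and 23.4 CPM, with 0.56 (-0.27 to 1.38).

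For each member with at least 100 UMIs over both libraries, the genes most alike in pattern were sought by Pearson's r of log2(CPM + 10) over 32 points, the clusters of each library with at least 10 cells, among 8199 genes. The points share 2 libraries and differ in depth, so r is a description. *Kit* was most like *Car8* (0.859), *Mlana* (0.835) and *Tyr* (0.832), the last a pair of pigment genes. *Ednrb* was most like *Sox10* (0.885), a transcription factor gene of the neural crest, *Cadm1* (0.878) and *Insc* (0.874), and *Erbb3* was also close to *Sox10* (0.902) and to *Ppp1r14c* (0.901). *Kitl* was most like *Fkbp10* (0.784) and *Gpc4* (0.764), a collagen chaperone and a glypican, and *Sec23a* (0.749), and *Erbb2* was most like *Emp2* (0.752), *Peli2* (0.701) and *Gja1* (0.697). Among the members, *Ednrb* and *Erbb3* had r of 0.809, *Kit* and *Ednrb* 0.0244, and *Kit* and *Kitl* -0.378.

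Positions of the genes are those of GENCODE M21 on GRCm38. Promoters were taken from RefSeq on GRCm38.p6, each 300 bases long from 250 before to 50 after the RefSeq start of the gene. That start can differ from the GENCODE start, and the *Ednrb* window (chr14:103843652-103843951) lies wholly inside the GENCODE gene. Of the 10 members 8 were matched, all but *Erbb3* and *Nrg1*. The windows were searched on both strands for CACGTG and CATGTG, the E-box forms bound by MITF in pigment cells. They were also searched for ACAAAG and ACAATG, core forms bound by SOX proteins. Over 27025 promoters of the same length, 7.24% held CACGTG, 14.1% CATGTG, 18.7% ACAAAG and 12.8% ACAATG. *Met* held CACGTG at base 125 of the window and *Hgf* CATGTG at base 232 on the opposite strand, and none of the 4 motifs was found in the windows of *Kit*, *Kitl*, *Ednrb*, *Edn3*, *Edn1* and *Erbb2*. Of the matched members, the windows of those with the most UMIs, the receptors *Kit* and *Ednrb* and the ligand *Kitl*, are printed. They show which letters these class-specific genes carry around their RefSeq start. The window of *Met* is also printed, and its capitals mark CACGTG. Each is 5′ to 3′ on the strand of the gene.
Kit: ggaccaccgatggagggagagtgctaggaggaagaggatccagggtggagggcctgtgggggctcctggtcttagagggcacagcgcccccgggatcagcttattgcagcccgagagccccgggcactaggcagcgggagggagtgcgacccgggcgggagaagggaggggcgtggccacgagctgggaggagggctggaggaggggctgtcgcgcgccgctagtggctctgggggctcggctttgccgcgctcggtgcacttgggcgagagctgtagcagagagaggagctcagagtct
Ednrb: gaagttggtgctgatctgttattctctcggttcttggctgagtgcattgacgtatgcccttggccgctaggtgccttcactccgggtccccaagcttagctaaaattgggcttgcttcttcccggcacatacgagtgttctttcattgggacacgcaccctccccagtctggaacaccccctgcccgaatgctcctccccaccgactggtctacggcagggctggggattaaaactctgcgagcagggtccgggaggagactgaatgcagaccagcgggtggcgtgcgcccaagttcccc
Kitl: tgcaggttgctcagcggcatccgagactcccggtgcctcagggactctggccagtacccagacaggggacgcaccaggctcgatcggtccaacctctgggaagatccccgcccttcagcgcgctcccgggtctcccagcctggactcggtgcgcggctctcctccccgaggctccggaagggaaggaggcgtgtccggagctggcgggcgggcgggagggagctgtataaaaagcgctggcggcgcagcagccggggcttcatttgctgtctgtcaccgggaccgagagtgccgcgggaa
Met: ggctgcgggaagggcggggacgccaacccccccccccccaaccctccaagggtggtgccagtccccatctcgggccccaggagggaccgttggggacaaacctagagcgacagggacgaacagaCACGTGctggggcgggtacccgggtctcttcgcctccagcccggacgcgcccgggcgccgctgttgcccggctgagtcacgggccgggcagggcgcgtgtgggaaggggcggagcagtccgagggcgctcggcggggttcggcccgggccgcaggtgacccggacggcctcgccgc

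The limits of these values follow from the design. A cluster held mostly by 1 library may reflect that library and not its genotype, and the levels of the 8 KO endothelial-like and 3 KO mast cell-like cells rest on very few cells. Counts of *Edn3*, *Edn1*, *Hgf* and *Met* were too low to compare the libraries, and those of *Nrg1* were too low to compare them within a cluster. RNA of a receptor or ligand is not its protein, and no signalling was measured.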

How the data were processed

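The count values are UMIs per gene and barcode as deposited; the authors' processing notes name Cell Ranger 2.2.0 and an mm10 reference extended by tdTomato and Cre. Cells with at least 100 genes, at most 10% mitochondrial UMIs and at most 40000 UMIs were kept. Genes found in at least 3 cells were scaled to 10000 UMIs per cell, and 1989 of the 2000 most variable genes, without the members, pathway genes, *Hira*-complex, histone variant, sex-linked and transgene sequences, gave 30 principal components, 15 neighbours and Leiden clusters at resolution 1 (seed 0). Both libraries were clustered together without correction. To name a cluster, at least 3 markers of a class had to be found in at least 10% of its cells and to stand 2-fold above the remaining cells after 10 CPM were added. In 2 clusters the markers of another class outnumbered their own among the 10 leading genes, and they were left unnamed. That rule was coded after a clustering in which they carried names. They held 3.25% of WT and 2.05% of KO cells (*Plac8*/*Cd74*) and 0.909% and 1.93% (*Stmn2*/*Ebf1*).

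Levels (CPM) are UMIs summed over a class per mega-UMI of that class. A count of 0 was given a limit of 3 counts. For thinning, each cell was drawn down to 2000 UMIs, and 102 WT and 23 KO cells below that depth were left out. Scrublet called 9 WT and 6 KO doublets, which were kept. Python 3.11.15 with scanpy 1.11.5, numpy 2.4.6, scipy 1.17.1 and igraph 0.11.9 was used, and edgeR 4.0.16 and DESeq2 1.42.0 under R 4.3.3 served only for alternative scaling. The code was checked on simulated data. The members and gene lists were chosen with earlier results of these data known. Of the pathway list, the gene highest in each main class of WT and each gene past 2-fold with at least 50 UMIs were named by rule, and a further 12 were picked for their role. *Adam17*, *Gab2*, *Spry1*, *Lrig1*, *Errfi1*, *Spred2* and *Etv1* were named after their values were seen.

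No test was run, since each genotype had 1 library. Alternatives covered the least number of genes per cell, Leiden resolutions of 0.5 and 2, each library clustered alone, members allowed in the clustering, doublets left out, thinning, the mean over cells, scaling and the least UMIs per gene. Alternatives chosen after seeing the data were naming the unnamed clusters, weighting KO clusters to the WT make-up, leaving out cells with a UMI of *Dct* or *Pmel*, and mast cell-like cells as background for *Ednrb*. The genes most alike to a member and the RNA of other classes in macrophage-like cells are not reported here in full.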

Additional observations from a re-analysis of the deposited data

How the results depend on the processing

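The 13 main values were recomputed under alternatives, giving 163 values, of which 158 stayed the same, 4 moved and 1 reversed. A ratio counted as reversed when it changed sign and its main interval lay wholly on 1 side of 0. Ratios whose main interval included 0 also changed sign in some settings. A ratio counted as the same when it stayed within the 95% counting interval of the main value, so a ratio from few UMIs could shift far: glial-like *Kit*, -1.33, was -0.32 without cells holding *Dct* or *Pmel*, and mesenchymal-like *Erbb3*, -0.87, was -1.85 after thinning. Of the 17 settings, 4 were chosen after seeing the data. Mesenchymal-like *Kit* had a log2 ratio of -0.60 at Leiden resolution 2 and of 0.51, the reversal, without cells that held a UMI of *Dct* or *Pmel* (chosen after seeing the data). Mesenchymal-like *Ednrb* was -0.72 with each library clustered alone. Glial-like *Ednrb* was 0.21 with KO clusters weighted to the WT make-up, and mesenchymal-like *Erbb3* was 0.56 without the *Dct* or *Pmel* cells, both chosen after seeing the data. The cause of these differences was not tested. The ratio of melanoblast-like *Kit* ran from 0.00 to 0.34 and that of mesenchymal-like *Kitl* from -0.45 to 0.07. The highest class was the same for 4 members in each of the 10 settings in which it was recomputed, again only among classes with enough cells in both libraries.

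Of 1440 levels 55 moved, and of 254 shares of cells 30 moved. Genes 2-fold higher and lower in KO numbered 309 and 341 in melanoblast-like, 327 and 212 in glial-like and 506 and 247 in mesenchymal-like cells. With at least 50 UMIs they numbered 89 and 93, 87 and 62, and 181 and 70. With any gene seen in both libraries they numbered 1410 and 710, 1323 and 706, and 1365 and 930.

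No paired analysis was possible because each genotype had 1 library. Sex and genotype cannot be told apart, and no alternative changes that.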
